A study of Mus musculus with 4 samples.

Results

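Ferritin and the genes that manage cellular iron were examined in RNA-seq of E14 mESCs, a mouse embryonic stem cell line, with 10 genes of 56748 listed. The 10 genes are the ferritin light chain gene Ftl1, its annotated copies Ftl1-ps1, Ftl2-ps and Ftl1-ps2, the heavy chain gene Fth1, the transferrin receptor gene Tfrc, the iron transporter genes Slc11a2 and Slc40a1, and the iron regulatory protein genes Aco1 and Ireb2. They were taken by gene symbol, and the set was chosen from measured values of this same comparison, so their differences between WT and Npac KO cells are given as a description, without a p-value.

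The comparison was between 2 libraries of WT E14 cells (WT1 and WT2) and 2 libraries of Npac KO cells (KO1 and KO2). The knockout was made in E14 cells with CRISPR/Cas9 and guides to an exon of Npac, followed by puromycin selection and picking of colonies, so each Npac KO library stands for 1 clone. The study's methods give 1 culture condition for E14 cells, on gelatin without feeder cells, in serum medium with LIF, the cytokine that keeps mESCs undifferentiated. Npac, listed as Glyr1 (ENSMUSG00000022536), had 3961 and 3115 reads in WT1 and WT2 and 744 and 888 reads in KO1 and KO2, a log2 fold change of -2.14 (SE 0.23, adjusted p = 0.00174, edgeR quasi-likelihood test). Reads of the gene therefore remained in the Npac KO libraries. The paper reports that Npac mRNA was lost by qPCR and that the protein was absent by Western blot in both clones.

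Libraries held between 15850805 and 16965120 reads counted on genes, and each of the 10 genes passed the filter on low counts, Ftl2-ps and Ftl1-ps2 through the WT libraries alone. Between WT1 and WT2 the normalized log2 values correlated at 0.967 across genes, and between KO1 and KO2 at 0.983. The 10 mESC markers summed to 6089 to 7597 CPM (counts scaled to a common library size after TMM normalization) in WT cells and 5260 to 5646 CPM in Npac KO cells, with Zfp42 called down (14426 and 12181 reads against 2084 and 2234) and Klf2 called up. Pou5f1, Sox2 and Nanog had at least 7747 reads in every library. The 8 fibroblast (feeder) markers summed to 41.1 to 76.2 CPM in WT cells and 49.9 to 60.03 CPM in Npac KO cells, with Col3a1 and Dcn at 0 reads in all libraries and Col1a1 called up (85 and 168 reads against 285 and 326). The 10 erythroid markers summed to 3.86 to 5.61 CPM in WT cells and 7.74 to 9.65 CPM in Npac KO cells, with Hbb-bs, Hbb-bt and Hbb-y at 0 reads in all libraries. The 8 primitive or visceral endoderm markers summed to 28.4 to 29.5 CPM in WT cells and 14.8 to 21.7 CPM in Npac KO cells. Of these, Sox7 was called down (273 and 162 reads against 4 and 16), and without it the sums overlapped, at 11.7 and 19.1 CPM in WT cells and 14.5 and 20.8 CPM in Npac KO cells. The part of these levels in the results was not tested. In bulk cells, fewer cells of a type and less RNA per cell cannot be told apart.

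Ferritin is a hollow shell built of light and heavy chains that stores iron inside the cell. The heavy chain oxidizes iron for storage, and the light chain helps it to mineralize. Iron enters the cell through the transferrin receptor, crosses membranes through the transporter encoded by Slc11a2, and leaves through ferroportin, encoded by Slc40a1. The proteins encoded by Aco1 and Ireb2 bind a hairpin in messenger RNA, the iron responsive element, when iron is scarce. A hairpin before the coding region blocks translation of ferritin and ferroportin, and hairpins after it protect the transferrin receptor messenger RNA from decay. These controls act largely on translation and mRNA stability, and translation was not measured here.

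The light chain copies are shown first because the result turns on which copy a read was assigned to. Sequences were taken from the GENCODE vM21 transcripts (GRCm38), and positions are counted from 1 at the A of the Ftl1 start codon. The stretch from base 461 to base 511 of the coding region holds the bases by which every copy compared differed from Ftl1, and bases in capitals differ from Ftl1.
Ftl1: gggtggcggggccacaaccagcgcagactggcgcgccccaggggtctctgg
Ftl1-ps1: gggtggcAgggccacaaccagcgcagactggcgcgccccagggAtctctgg
Ftl2-ps: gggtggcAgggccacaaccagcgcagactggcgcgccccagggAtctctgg
Ftl1-ps2: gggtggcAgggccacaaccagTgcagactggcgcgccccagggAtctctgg

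Ftl2-ps differed from the Ftl1 coding region at 7 of 552 bases. Of these, G468A and G504A, with the Ftl1 base first, were present in all 4 copies compared, which were Ftl1-ps1, Ftl2-ps, Ftl1-ps2 and the processed pseudogene Gm15590. Ftl1-ps1 carried only these changes (2 of 552 bases), Gm15590 differed at 5 of 552 bases, and Ftl1-ps2 at 12 of 549 bases.

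**Figure D1:**
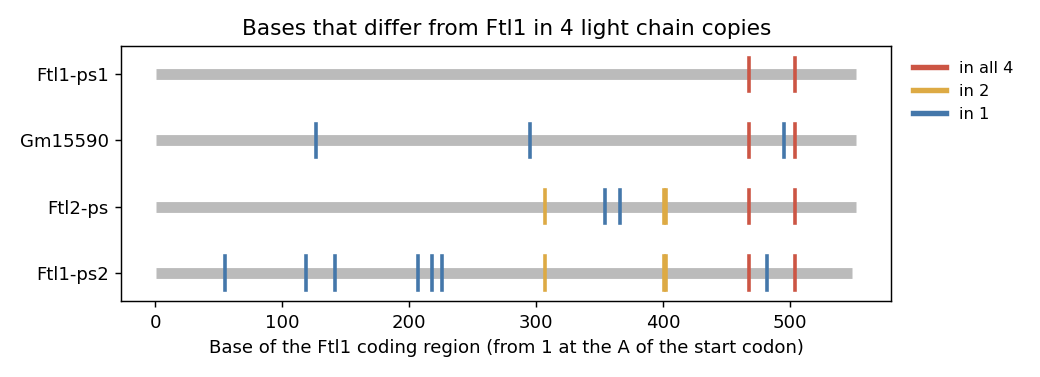
Positions in the Ftl1 coding region (x axis, bases from the start codon) at which 4 light chain copies differ from Ftl1. Red marks are shared by all 4 copies, yellow marks by 2, and blue marks occur in 1. Ftl2-ps has its first difference at base 307, and Ftl1-ps1 at base 468.

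The first 306 bases of Ftl2-ps were identical to Ftl1. Of 403 windows of 150 bases in the coding region of Ftl2-ps, 39.2% occurred letter for letter in another of the copies. The share was 78.9% for Ftl1, 85.9% for Ftl1-ps1, 16.9% for Gm15590 and 0% for Ftl1-ps2 (400 windows). Reads were 150 bases long and paired. How reads with several matches were treated is not given in the sources used here, so the values of single copies are uncertain, and the sum over the copies is given beside them.

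In the deposited coordinates, Ftl1 (ENSMUSG00000050708) lies on chromosome 7 from 45107368 to 45109308, Ftl2-ps (ENSMUSG00000082062) on chromosome 4 from 125398081 to 125398632, Ftl1-ps2 (ENSMUSG00000096755) on chromosome 10 from 130428026 to 130428574, and Ftl1-ps1 (ENSMUSG00000062382) on chromosome 13 from 74547813 to 74555465. The files name no build, and the start and end matched those of GRCm38 for 1 of the 10 genes, Aco1. Ftl2-ps and Ftl1-ps2 are annotated as processed pseudogenes that begin at the start codon, whereas Ftl1-ps1 is annotated as protein coding despite its name.

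Npac KO and WT libraries differed in the copy that most light chain reads were assigned to. In WT cells most light chain reads lay on Ftl2-ps, and in Npac KO cells nearly all lay on Ftl1. Ftl2-ps had 40564 reads in WT1 and 33093 in WT2, but 8 reads in KO1 and 34 in KO2. On the CPM scale the WT level was 2275 ± 539 and the Npac KO level 1.24 ± 1.03 (SD, n = 2 each), a log2 fold change of -10.81 (SE 0.56). The WT and Npac KO libraries were far apart. Both Npac KO libraries also shared shifts of whole chromosomes. Genes of chromosome 8 were higher by a median of 0.507 in KO1 and 0.517 in KO2 on the log2 scale. For chromosome 11 the medians were 0.508 and 0.483. Loss of Npac and other differences shared by the picked clones cannot be told apart here.

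Ftl1, the gene that encodes the light chain, moved the other way. It had 6545 and 5619 reads in WT cells and 15159 and 15931 reads in Npac KO cells. Its level went from 375 ± 75.6 CPM in WT cells to 948 ± 38.8 CPM after knockout (SD, n = 2 each), a log2 fold change of 1.34 (SE 0.21). Both Npac KO libraries lay above both WT libraries.

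Ftl1-ps1, the copy closest to Ftl1, went with it. It had 89 and 86 reads in WT cells and 436 and 453 reads in Npac KO cells, or 5.37 ± 0.640 and 27.1 ± 1.33 CPM (SD, n = 2 each), with a log2 fold change of 2.33 (SE 0.26). Its coding region shares 78.9% of 150-base windows with Ftl1, and the ratio between the counts of these copies therefore carries the uncertainty given above.

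Ftl1-ps2, which shares no 150-base window with the other copies, followed Ftl2-ps. It had 988 and 825 reads in WT cells, 0 reads in KO1 and 3 reads in KO2. The WT to Npac KO ratio of pooled normalized reads was 606, with an exact 95% interval of 207 to 2943 that covers counting error only.

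Summed over the 4 copies, light chain reads were lower in Npac KO cells. The sums were 48186 and 39623 reads in WT1 and WT2, and 15603 and 16421 reads in KO1 and KO2. On the CPM scale the sum went from 2711 ± 627 in WT cells to 976 ± 39.0 after knockout (SD, n = 2 each), a log2 fold change of -1.47 (SE 0.23), or 2.78-fold lower. In FPKM, which weights each copy by its length, the log2 difference of the sum was -2.61. The groups did not overlap. The direction of the light chain therefore depended on the copies counted, since Ftl1 alone gave 1.34 and the sum without Ftl2-ps gave 1.16.

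Shares of the summed reads are shares of assigned reads, not of levels per length. Ftl2-ps held 84.2% (95% exact Clopper-Pearson interval 83.9 to 84.5%) in WT1 and 83.5% (83.2 to 83.9%) in WT2, against 0.0513% (0.0221 to 0.101%) in KO1 and 0.207% (0.143 to 0.289%) in KO2, whose intervals did not overlap. Ftl1 held 13.6% in WT1 and 14.2% in WT2, against 97.2% in KO1 and 97.02% in KO2. Ftl1-ps1 held 0.185% and 0.217% in WT cells and 2.79% and 2.76% in Npac KO cells. Ftl1-ps2 held 2.05% and 2.08% in WT cells, 0 of 15603 reads in KO1, which allows a share of up to 0.0192% (3 reads of the total; the two-sided exact upper limit is 0.0236%), and 0.0183% in KO2. All intervals and floors cover counting error only.

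**Figure D2:**
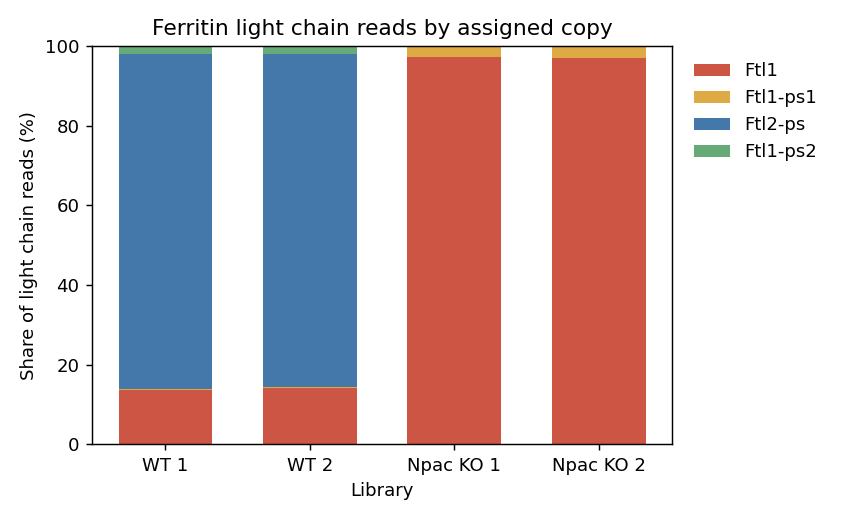
Share of ferritin light chain reads (y axis, percent) assigned to each of 4 annotated copies in each library. Ftl2-ps holds 84.2% and 83.5% in the WT libraries, and Ftl1 holds 97.2% and 97.02% in the Npac KO libraries.

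Within a library, the Ftl2-ps count was 6.20 times the Ftl1 count in WT1 and 5.89 times in WT2. The same ratio of reads, which is not corrected for length, was 0.000528 in KO1 and 0.00213 in KO2, although Ftl1 had its highest counts in these libraries. Per length, in FPKM, Ftl2-ps was 15.0 times Ftl1 in WT1 and 14.3 times in WT2, and 0.00128 and 0.00518 times in KO1 and KO2.

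Genes that overlap the light chain copies were read beside them, all chosen for their position. Ftl2-ps lies inside Grik3, which encodes a kainate-type glutamate receptor subunit, on the same strand and outside all Grik3 exons of GENCODE vM21. Grik3 had 2833 and 1565 reads in WT cells and 282 and 390 reads in Npac KO cells. Mir692-2, a microRNA gene annotated over Ftl2-ps, had 584 and 408 reads in WT cells and 0 and 6 in Npac KO cells. Another microRNA gene, ENSMUSG00002075122, overlaps Ftl1-ps2 on the same strand. It had 18 and 23 reads in WT cells and 3 and 0 in Npac KO cells. On the strand opposite to Ftl1-ps1, the lncRNA Gm47428 had 0 and 2 reads in WT cells and 11 and 10 in Npac KO cells. Whether counting used strand is not given in the sources used here, so reads of Ftl1-ps1 and Gm47428 cannot be told apart where they overlap. Mir692-2 lies on the strand of Ftl2-ps, and reads over both may come from either.

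Other genes with light chain sequence were searched by blastn at 90% identity to Ftl1 over 60% of their length. The search matched 22 genes, of which 11 were found in the files by gene ID and 9 of these had a read in any library. Mir692-2 is listed in the files under another ID and is not among the 11. Among those outside the 10 genes, and named after their values were seen, Gm15590 had 512 and 385 reads in WT cells and 44 and 49 in Npac KO cells. Gm12164 had 59 and 48 reads in WT cells and 0 in both Npac KO libraries, at least 35.8-fold lower against a floor of 3 reads over the group. With every gene matched by ID the sums were 48833 and 40118 reads in WT cells and 15647 and 16470 in Npac KO cells, and the log2 fold change was -1.49. For comparison, of 910 processed pseudogenes tested, 71 passed the thresholds upward and 142 downward.

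Fth1, the heavy chain gene (chromosome 19, 9957962 to 9962462 in the deposited coordinates), showed no such separation. It had 333 and 397 CPM in WT1 and WT2 and 341 and 324 CPM in KO1 and KO2. The log2 fold change was -0.13 (SE 0.19), and the groups overlapped. In deposited FPKM (fragments per kilobase of gene length, scaled for library size), Ftl1 was 3.33 times Fth1 in WT1, 2.10 times in WT2, and 7.39 and 7.35 times in KO1 and KO2. With all 4 light chain copies the ratio to Fth1 was 54.7 in WT1 and 32.8 in WT2, against 7.64 in KO1 and 7.62 in KO2. The ratio of light to heavy chain therefore rose or fell with the copies counted.

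The files also list an X-linked family of heavy chain-like genes, here named after their values were seen. Their counts were low, at most 125 reads in a library. Fthl17f had 11 and 110 reads in WT cells and 67 and 125 in Npac KO cells, and Fthl17c had 14 and 109 reads in WT cells and 1 and 7 in Npac KO cells. Fthl17b had 0 reads in both WT libraries and 14 and 29 in Npac KO cells, at least 14.3-fold higher against a floor of 3 reads over the group. It passed the filter on low counts through the Npac KO libraries alone. Fthl17-ps1 had 2 and 3 reads in WT cells and 25 and 28 in Npac KO cells. Fthl17c was called down, Fthl17b and Fthl17-ps1 were called up, and Fthl17f, whose groups overlapped, was not called. The further tested members were not called either. Fthl17d had 2 and 75 reads in WT cells and 7 and 16 in Npac KO cells. Fthl17a had 2 and 15 against 14 and 23, and Fthl17-ps2 had 6 and 21 against 17 and 18. Near-identical members of this family may share reads. Ftmt, which encodes mitochondrial ferritin, was listed at 0 reads in all libraries.

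Tfrc, which encodes the receptor that takes up transferrin-bound iron, had a wide spread between the WT libraries. It had 504 CPM in WT1 and 248 CPM in WT2, and 680 and 504 CPM in KO1 and KO2. The log2 fold change was 0.66 (SE 0.33), and KO2 lay just below WT1, so the groups overlapped. Without WT1 the value was 1.23, and without WT2 it was 0.23.

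Slc11a2 encodes a transporter that carries ferrous iron across membranes. It had 41.8 and 34.1 CPM in WT cells and 39.8 and 41.8 CPM in Npac KO cells, a log2 fold change of 0.11 (SE 0.20) with overlapping groups. Slc40a1, which encodes the iron exporter ferroportin, was near the lower end of detection with 30 and 72 reads in WT cells and 78 and 68 reads in Npac KO cells. Its log2 fold change of 0.55 (SE 0.48) became 0.09 without WT1 and 1.18 without WT2, so at these low counts no difference could be detected.

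Of the genes for the RNA-binding regulators, Ireb2 (iron regulatory protein 2) was lower in both Npac KO libraries and Aco1 (iron regulatory protein 1, also a cytosolic aconitase) overlapped. Ireb2 had 418 and 326 CPM in WT cells and 287 and 279 CPM in Npac KO cells, a log2 fold change of -0.39 (SE 0.20). It was not called, and 32.5% of all tested genes had both Npac KO libraries below both WT libraries. With the median shift of each chromosome removed, the Ireb2 value was -0.19, as genes of chromosome 9 were lower by a median of 0.198 in KO1 and 0.202 in KO2 on the log2 scale. Aco1 had 84.9 and 111 CPM in WT cells and 88.7 and 76.4 CPM in Npac KO cells, a log2 fold change of -0.25 (SE 0.20).

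**Figure D3:**
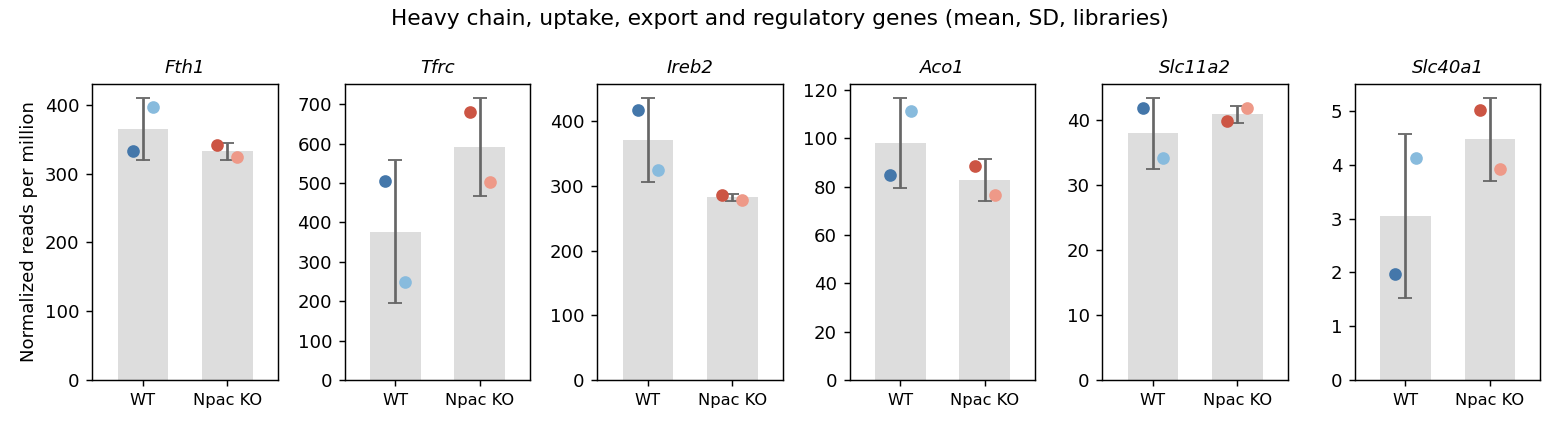
Normalized CPM (y axes, each from 0) of Fth1, Tfrc, Ireb2, Aco1, Slc11a2 and Slc40a1, with points for libraries (WT in blue, Npac KO in red), bars for the mean and error bars for the SD (n = 2 each). Only Ireb2 has both Npac KO libraries (287 and 279) below both WT libraries (418 and 326) without overlap. It was not called, and 32.5% of all tested genes lay this way.

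Over the 10 genes, 2 passed the thresholds (adjusted p below 0.05 and a fold change above 1.5) upward and 2 downward, where 11.0% and 10.7% of the 18157 tested genes did. Both Npac KO libraries lay above both WT libraries for 2 of the 10 genes, and below them for 3, where 33.2% and 32.5% of all tested genes did. The genes were chosen from this contrast, so nothing is read from these counts.

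The order of levels between genes was read per length, in deposited FPKM. In WT cells the order was led by Ftl2-ps at 4091 ± 974 FPKM, followed by Ftl1 at 278 ± 56.4, Fth1 at 104 ± 12.8, Ftl1-ps2 at 101 ± 22.5 and Tfrc at 60.3 ± 29.2 (SD, n = 2 each). Fth1 and Ftl1-ps2 differed by less than their spread. Below them came Ireb2 at 38.9 ± 6.86, Aco1 at 21.6 ± 4.08, Slc11a2 at 5.92 ± 0.860, Ftl1-ps1 at 4.36 ± 0.525 and Slc40a1 at 0.335 ± 0.168 FPKM.

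In Npac KO cells Ftl1 led at 700 ± 35.7 FPKM. Fth1 at 94.9 ± 4.43 FPKM and Tfrc at 94.8 ± 20.9 FPKM came next and differed by less than their spread. Ireb2 had 29.5 ± 0.896, Ftl1-ps1 21.9 ± 1.30 and Aco1 18.2 ± 2.09 FPKM. Slc11a2 had 6.35 ± 0.150 FPKM, Ftl2-ps 2.21 ± 1.81 FPKM and Slc40a1 0.492 ± 0.0897 FPKM, and Ftl1-ps2 was listed at 0 in KO1 and at 0.310 in KO2.

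**Figure D4:**
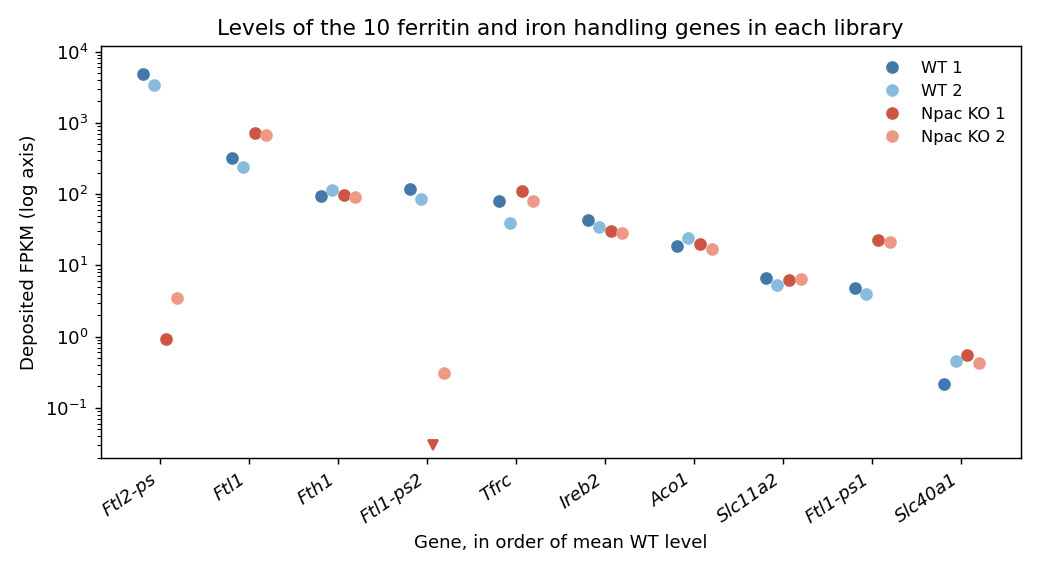
Deposited FPKM (y axis, log scale) of the 10 genes in each library, ordered by mean WT level. The triangle marks Ftl1-ps2 in KO1, which had 0 reads. Ftl2-ps averages 4091 FPKM in WT cells and 2.21 FPKM in Npac KO cells, whereas the points of Fth1, Tfrc, Aco1, Slc11a2 and Slc40a1 overlap between genotypes.

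A match to an iron responsive element was found in at least 1 transcript of 5 of the 10 genes. The search read the transcript strand for C, any 5 bases, CAGTGN, and 5 bases that pair with the first 5, with G-T pairs allowed. Such a match was present in 1.34% of 21901 genes with a protein-coding transcript, and in 0.81% of all 55450 genes searched. Ferritin, ferroportin and transferrin receptor transcripts are known to hold such elements. Matches in these genes were therefore known in advance, and nothing is read from their excess over these shares. The matches are shown because the Aco1 and Ireb2 proteins are known to bind elements of this kind, although a strict pattern can miss known elements. Capitals mark the loop, and a match is a description of letters, not of binding.
Ftl1, chr7:45459778-45459807 (minus strand, 5' UTR): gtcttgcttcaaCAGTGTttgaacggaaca
Ftl1-ps1, chr13:74406428-74406457 (plus strand, 5' UTR): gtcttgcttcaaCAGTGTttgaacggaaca
Fth1, chr19:9982732-9982761 (plus strand, 5' UTR): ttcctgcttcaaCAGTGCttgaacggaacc
Slc40a1, chr1:45925464-45925493 (minus strand, 5' UTR): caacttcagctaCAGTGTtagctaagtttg
Tfrc, chr16:32631219-32631248 (plus strand, 3' UTR): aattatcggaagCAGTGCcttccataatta
Tfrc, chr16:32631598-32631627 (plus strand, 3' UTR): cattatcgggagCAGTGTcttccataatgc
Tfrc, chr16:32631663-32631692 (plus strand, 3' UTR): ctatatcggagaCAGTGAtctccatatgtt
Tfrc, chr16:32631710-32631739 (plus strand, 3' UTR): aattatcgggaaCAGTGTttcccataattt

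These coordinates are GRCm38. The 30 bases printed for Ftl1 and Ftl1-ps1 are the same. The annotated transcripts of Ftl2-ps and Ftl1-ps2 begin at the start codon and held no match, and neither did those of Slc11a2, Aco1 and Ireb2. Lack of a match to this strict pattern does not show that a gene, such as Slc11a2, lacks an element. Among the genes with a match, Ftl1 and Ftl1-ps1 were higher in both Npac KO libraries, and Fth1, Tfrc and Slc40a1 overlapped between genotypes. Of all tested genes, 33.2% had both Npac KO libraries above both WT libraries. The genes were chosen from this contrast and the light chain copies may share reads, so nothing is read from this split.

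The rest of the pathway was read from a list of 81 genes, grouped by role, of which 72 passed the filter on low counts. Of these, 5 were up-regulated and 9 were down-regulated at the same thresholds (edgeR quasi-likelihood test, adjusted over all 18157 tested genes), that is 6.94% and 12.5% of those tested, where 11.0% and 10.7% of all tested genes were. The median log2 fold change was 0.05 over the list and 0.00 over all tested genes. The other 58 genes did not pass both thresholds.

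Among 11 tested genes of iron uptake and reduction, 2 rose and 2 fell. Steap3, a ferrireductase of endosomes that reduces iron released from transferrin, had 98 and 225 reads in WT cells and 628 and 732 in Npac KO cells (log2 fold change 2.09, SE 0.33, edgeR adjusted p = 0.0066). Slc22a17, which encodes a lipocalin receptor, rose from 17.4 ± 4.66 to 36.7 ± 0.292 CPM (SD, n = 2 each; edgeR adjusted p = 0.022). Steap1, of the same protein family as Steap3, fell from 38.3 ± 7.05 to 10.2 ± 3.92 CPM (SD, n = 2 each; log2 fold change -1.90, edgeR adjusted p = 0.0075). Slc39a14, a zinc and iron importer, fell from 90.8 ± 22.7 to 44.2 ± 8.48 CPM (SD, n = 2 each; edgeR adjusted p = 0.022). Trf, which encodes transferrin, had a log2 fold change of 0.62 (SE 0.36) and did not pass the test.

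Among the other genes of ferritin storage and turnover, none of 3 tested passed both thresholds. Ncoa4, the receptor that delivers ferritin to autophagy, had a log2 fold change of 0.17 (SE 0.30). The iron chaperone genes Pcbp1 and Pcbp2 had -0.21 (SE 0.21) and 0.41 (SE 0.20).

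Among 7 tested genes of export and heme transport, Pgrmc1, which encodes a heme-binding membrane protein, fell from 103 ± 16.7 to 42.9 ± 1.75 CPM (SD, n = 2 each; log2 fold change -1.27, edgeR adjusted p = 0.0060), and no other passed. Among 8 tested regulators, 1 rose and 2 fell. Erfe, the gene for erythroferrone, a hormone that suppresses hepcidin, rose from 3.95 ± 1.05 to 10.7 ± 2.37 CPM (SD, n = 2 each; edgeR adjusted p = 0.032). Bach1, a heme-sensing repressor of antioxidant and ferritin genes, fell from 103 ± 42.9 to 48.4 ± 5.19 CPM (SD, n = 2 each; edgeR adjusted p = 0.035). Nfe2l2, the activator of the same kind of genes, fell from 110 ± 29.1 to 58.4 ± 6.67 CPM (SD, n = 2 each; edgeR adjusted p = 0.028). Fbxl5, the ubiquitin ligase subunit that degrades iron regulatory protein 2, had a log2 fold change of -0.04 (SE 0.21).

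Of 4 tested genes from the group of further mRNAs with a known iron responsive element, Cdc14a, a phosphatase, fell from 20.8 ± 13.8 to 6.05 ± 0.632 CPM (SD, n = 2 each; edgeR adjusted p = 0.034), and Cdc42bpa, a kinase, fell from 53.1 ± 22.1 to 25.7 ± 0.271 CPM (SD, n = 2 each; edgeR adjusted p = 0.041). The SD between the WT libraries was wide for both, and without WT1 the log2 fold changes were -0.90 for Cdc14a and -0.57 for Cdc42bpa, against -1.78 and -1.05 with all libraries. Cdc42bpa was called in 7 of 13 alternatives, and with chromosome medians removed it missed the threshold (edgeR adjusted p = 0.051, with a range of 3.12e-06 to 0.18). Bach1 likewise went from -1.08 to -0.61 without WT1. Cdc14a was called in 8 of 13 alternatives, Bach1 in 9 and Slc39a14 in 10.

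Among 18 tested genes of mitochondrial iron and iron-sulfur clusters, 1 rose and 1 fell. Abcb10, a mitochondrial transporter, rose from 27.2 ± 4.57 to 50.4 ± 6.93 CPM (SD, n = 2 each; log2 fold change 0.89, edgeR adjusted p = 0.027). It lies on chromosome 8, whose genes were higher by a median of 0.507 in KO1 and 0.517 in KO2 on the log2 scale, and with chromosome medians removed its log2 fold change was 0.38 (edgeR adjusted p = 0.26, with a range of 0.000704 to 0.27 over 13 alternatives). Hspa9, a mitochondrial chaperone that serves iron-sulfur cluster transfer, fell from 1536 ± 282 to 874 ± 22.3 CPM (SD, n = 2 each; edgeR adjusted p = 0.030). Of 8 tested genes of cytosolic iron-sulfur assembly, Ciao2a fell from 62.0 ± 2.10 to 28.5 ± 3.41 CPM (SD, n = 2 each; edgeR adjusted p = 0.0088). Of 13 tested genes of heme synthesis and breakdown, Cpox, an enzyme of late heme synthesis, rose from 43.8 ± 4.68 to 70.0 ± 2.87 CPM (SD, n = 2 each; edgeR adjusted p = 0.039). The Cpox call held in 8 of 13 alternatives. Hmox1, the heme-degrading oxygenase, had a log2 fold change of 0.22 (SE 0.25).

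**Figure D5:**
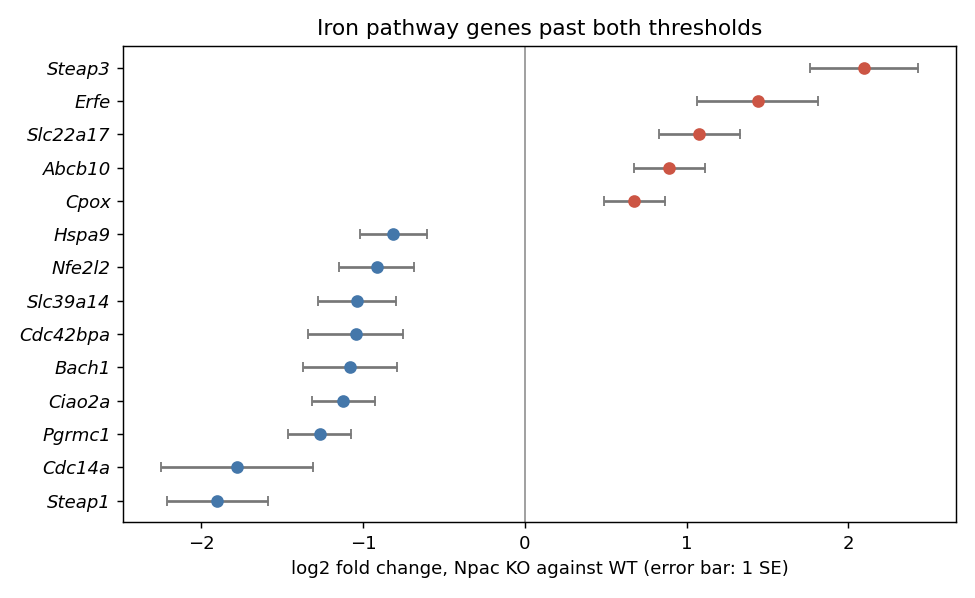
log2 fold change of Npac KO against WT cells (x axis) with 1 SE for the 14 iron pathway genes past both thresholds, 5 up in red and 9 down in blue. Values run from -1.90 for Steap1 to 2.09 for Steap3.

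Protein-coding genes whose pattern over the 4 libraries was most like the summed light chain were Catsperz, Sat1, Rerg, Cry1 and St3gal3, with Euclidean distances of centered log2 CPM between 0.0150 and 0.0611. Of all protein-coding genes tested, 70 lay within a distance of 0.25. Sat1, which encodes an acetyltransferase of polyamine breakdown, had 132 and 93.0 CPM in WT cells and 40.9 and 38.9 CPM in Npac KO cells. Those most like Fth1 were Cacnb1, Acot7, Tprgl, Lrrc8c and Errfi1, with distances between 0.0118 and 0.0300, and 944 genes lay within 0.25. With 4 libraries these distances are a description only.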

How the data were processed

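RNA-seq of 2 WT and 2 Npac KO libraries was analysed. The authors deposited raw read counts per gene, made, per the submitters' processing notes, with HISAT2 2.0.5 and featureCounts 1.5.0-p3 on mm10. The paper's methods name another HISAT release. The deposited FPKM values are those counts over gene length and over a scaled library size, which lay between 15376091 and 17622289 and the same for WT2 and KO2. Counts were normalized by TMM and tested in edgeR 4.0.16 (R 4.3.3; filterByExpr, quasi-likelihood test, Benjamini-Hochberg over 18157 genes), and called at an adjusted p below 0.05 and a fold change above 1.5, as in the paper's methods. Light chain rows were summed before the same fit. limma 3.58.1, DESeq2 1.42.0 and other alternatives were run. On simulated counts of 17030 tested genes the test recovered 21.2% of 104 genes changed 2-fold and 85.4% of 96 changed 4-fold. Of its calls there, 7.14% were false. No other genes were changed in the simulation, whereas 1999 genes were called up and 1946 down in the data. The adjusted p depends on how many genes change, so the recovered shares may be too low for these data. A gene that was not called may therefore still differ. Copies were matched with blastn 2.17.0. The members, lists and tests were chosen with earlier results of these data known. Named genes are the 10 genes, the list's called genes (at most 25), the 5 nearest patterns to the summed light chain and to Fth1, and Glyr1. p-values measure only the spread between these libraries, and each knockout library is 1 clone. A stretch of the light chain sequences is not reported here.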

Additional observations from a re-analysis of the deposited data

How the results depend on the processing

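The summed light chain log2 fold change of -1.47 lay between -1.69 and -1.25 with 1 library left out, and it moved by less than 1 SD under the other normalizations, DESeq2, both other count filters, the replicate block (-1.45), chromosome medians removed and both wider sets of copies. In FPKM it was -2.61 with either pseudocount (0.1 or 1), which divides Ftl2-ps by 552 bases and Ftl1 by 1340. It reversed to 1.34 with Ftl1 alone and to 1.16 without Ftl2-ps, the latter chosen after the data were seen. Of the iron pathway list, 5 genes were called up and 9 down. Calls up and down were 8 and 11 with no count filter, 9 and 13 with the replicate block, and 1 and 3 at an adjusted p below 0.01. With FPKM at a pseudocount of 1 they were 5 and 5. With 1 library left out, calls up ranged from 1 to 12 and calls down from 1 to 17. Without WT2 the counts were 12 and 17, without KO1 they were 1 and 2, and without KO2 they were 1 and 1. The cause was not tested. Steap3 and Steap1 were called in all 13 alternatives that refit all genes, and the other 12 genes in 7 to 12 of them. Same-numbered libraries deviated together (correlation 0.332), but 2 pairs do not show that the numbers pair the samples. The block gave 3128 genes up and 2994 down, against 1999 and 1946 over all tested genes without it. With no count filter these were 2862 and 2799. Without WT1 they were 2686 and 2801, without WT2 3477 and 3311, without KO1 642 and 606, and without KO2 671 and 681. Of the 10 genes, none that had been called changed its sign. With at least 10 reads in every library Ftl2-ps and Ftl1-ps2 had no value, and the Ftl1-ps2 ratio was recomputed only under the other normalizations and without WT1, WT2 or KO1 (log2 ratio between -9.47 and -8.32).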
